A study of Mus musculus with 47 samples.

Results

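The hippocampal transcriptome of old male mice was compared 1 day after the induction of sepsis with that of old male controls. The members of this comparison were the genes whose mean over these 8 libraries was at least 5 CPM (reads of a gene relative to all reads of its library, normalized between libraries), and there were 11687 of them among the 28032 genes of the deposited table. The last gene kept by this rule was Paqr6, with a mean of 5.004 CPM, and the next gene below it was Ankrd9, with 4.999 CPM. Each group held 4 C57BL/6 males of 18 to 22 months, and the hippocampus of each mouse gave 1 poly(A) library that was sequenced on the Ion Proton.

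For sepsis the study used cecal ligation and puncture, in which the cecum is tied off and pierced so that gut bacteria enter the abdomen. These mice also received anesthesia, buprenorphine, delayed injections of the antibiotic imipenem and cone restraint shortly before they were killed. The controls were taken from the home cage without surgery, and only at death were all animals given isoflurane. Sepsis, surgery, drugs and restraint therefore cannot be told apart in this comparison. The whole series holds 47 libraries in 12 groups of age, sex and time, and the day 1 and control groups of old females (18 to 22 months) and of young males and females (3 to 5 months), with 4 mice each, were used here for comparison. Values of 4 old males taken on day 4 are also given. These had received more doses of imipenem than day 1 mice and restraint on several days. Most old mice with sepsis had died by then, so the mice of this late group are survivors, a selected minority.

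The hippocampus holds excitatory and inhibitory neurons, astrocytes, the oligodendrocytes that wrap axons in myelin, microglia, which are the resident immune cells of the brain, and the endothelium and mural cells of its vessels. A severe infection outside the brain reaches these cells through circulating cytokines, of which interleukin 6 acts through STAT3, through vessels, and through adrenal glucocorticoids, whose receptor binds DNA and switches on a well-known set of target genes. Oligodendrocytes synthesize large amounts of cholesterol and galactolipids for myelin, and the transcription factor SREBF2 controls the enzymes of cholesterol synthesis. In bulk tissue a lower level may mean fewer cells of a type or less RNA per cell, and these cannot be told apart.

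From the steps between low values, a read was worth an estimated 0.0362 to 0.0418 CPM, which gives the control libraries 18702846 to 20465177 reads assigned to genes and the day 1 libraries 19798749 to 21780680. Markers of the labelled tissue were plain in all libraries: the granule cell gene Prox1 was at 71.9 to 86.2 CPM in controls and 71.3 to 85.5 on day 1, the CA1 gene Wfs1 at 93.2 to 119 and 86.7 to 103, and Slc17a7, the vesicular glutamate transporter of excitatory neurons, at 795 to 914 and 777 to 828. Xist was at most 0.0414 CPM and the sum of Y-linked genes was between 67.7 and 89.9, as the label male requires. The library of day 1 replicate 3 stood apart. Ttr, which the choroid plexus makes in large amounts, was at 2939 CPM there, against 2.13 to 30.7 in controls and 8.44 to 15.7 in the other day 1 libraries. Other markers of this tissue moved with it. Kl was at 99.6 CPM in that library and 13.9 to 18.2 in controls, Folr1 was at 31.8 CPM in that library and at most 1.74 in the other 7, and Kcnj13 at 19.4 and at most 0.863. All 13 choroid plexus markers were measured, and their sum was 28.1 to 57.9 CPM in controls, 33.6 to 53.7 in 3 of the day 1 libraries and 3306 in replicate 3. Without that library, 208 of the calls described next were lost and 98 others were gained, and values without it are given where they matter.

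**Figure D1:**
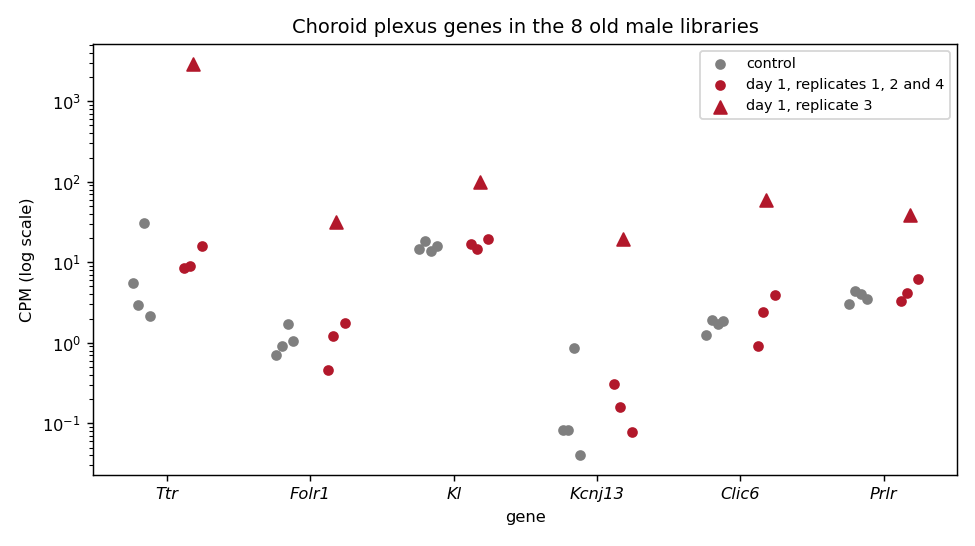
Level of 6 choroid plexus genes, in CPM on a log scale, in each of the 8 libraries of old males. Grey circles are the 4 controls, red circles day 1 replicates 1, 2 and 4, and red triangles day 1 replicate 3, which lay above every other library for all 6 genes.

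On day 1, 993 of the 11687 genes differed from controls at an unadjusted p below 0.01 in limma's moderated test on log2(CPM + 1), the threshold used by the study, and such genes are named calls here (8.50% of all genes tested). Of these, 442 were higher on day 1 (3.78%) and 551 were lower (4.71%). This excess of lower genes depended on processing, with 499 higher and 510 lower after scaling by the median of ratios, 527 and 488 after a correction for GC content, and 498 and 462 without control replicate 4. Of all genes tested, 618 also had a Benjamini-Hochberg adjusted p below 0.05 (5.29%), of which 284 were higher and 334 lower. In 1312 genes (11.2%) the 4 control and the 4 day 1 values did not overlap, and 837 of the called genes were among these. Most changes were modest: the median log2 fold change was 0.37 for the genes called higher and -0.33 for those called lower, against -0.01 over all genes and a median standard deviation between libraries of 0.12. Only 48 called genes changed by at least 2-fold, 40 of them upward.

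**Figure D2:**
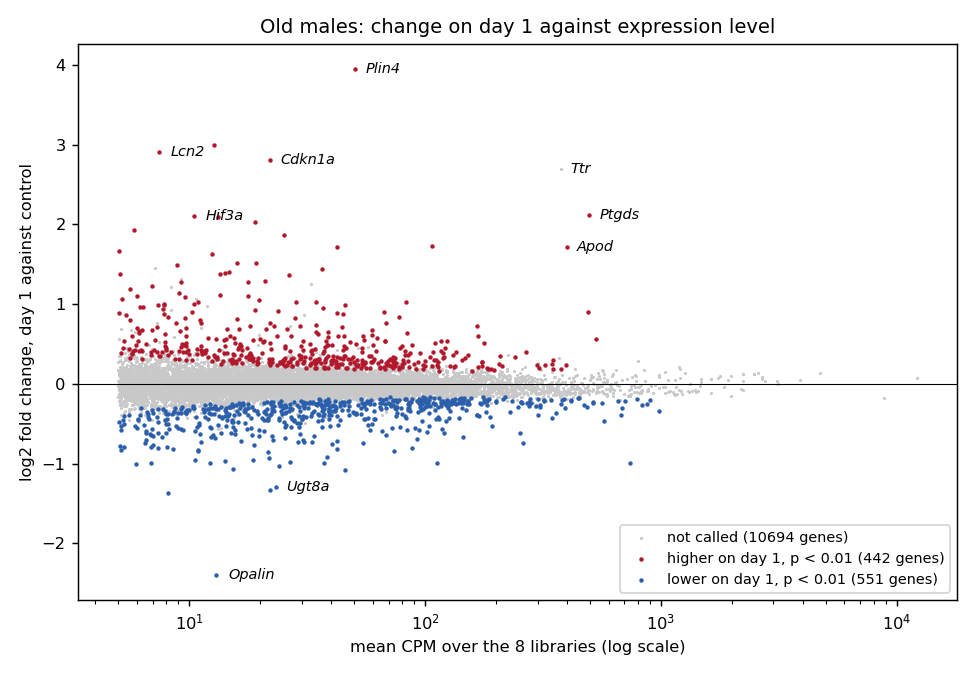
Log2 fold change of day 1 against control for each of the 11687 genes, plotted against its mean over the 8 libraries in CPM on a log scale. Red points are the 442 genes called higher and blue points the 551 called lower. Plin4 had the largest rise (3.95) and Opalin the largest fall (-2.40). Ttr, which was high in day 1 replicate 3 alone, was not called.

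The genes that the study links to glucocorticoid signalling were upregulated. The list held the 18 genes that the study names as such among those it found upregulated on day 1 in every age and sex group. These old male samples were part of that choice, so neither the direction nor the calls of the list are independent evidence. All 18 were called higher, with a median log2 fold change of 0.94. Cdkn1a, an inhibitor of cyclin-dependent kinases that halts the cell cycle, was at 4.93, 4.05, 4.39 and 5.29 CPM in controls and 30.98, 51.8, 31.6 and 43.3 CPM on day 1. Its level thus rose 8.44-fold without overlap, and the log2 fold change was 2.81 (SE 0.14, adjusted p = 2.47e-08). Sult1a1, a sulfotransferase, rose from 4.55 ± 1.42 CPM (SD, n = 4) to 22.02 ± 1.58, a log2 fold change of 2.09. Sgk1, a kinase that regulates ion channels and transporters, was at 43.2, 48.7, 41.4 and 62.9 CPM in controls and 152, 191, 147 and 167 CPM on day 1. The highest control lay far below the lowest day 1 library, with a log2 fold change of 1.74 (SE 0.11, adjusted p = 4.11e-07).

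Smaller changes on the list were those of Arl4d, a small GTPase (1.27), Nfkbia, the inhibitor that holds NF-kB in the cytoplasm (1.06), Fkbp5, a co-chaperone that dampens the glucocorticoid receptor (1.02), and Tsc22d3, also known as GILZ, which carries part of the anti-inflammatory action of glucocorticoids (0.89). Fkbp5 rose from 54.4 ± 6.38 CPM to 111 ± 4.22 (SD, n = 4; adjusted p = 8.95e-07). The smallest change on the list was that of Sesn1, a stress sensor, at 0.28 (adjusted p = 0.0339). Wipf3, an actin regulator on the same list, went from 432 ± 73.9 to 630.4 ± 45.96 CPM. Outside the list, Fam107a, an actin-binding protein of astrocytes and neurons that stress hormones induce, rose from 343 ± 63.5 to 641 ± 84.01 CPM (log2 fold change 0.91, adjusted p = 0.000162). Arrdc2, an arrestin-domain protein, was at 9.70, 9.88, 9.89 and 11.4 CPM in controls and 38.1, 45.8, 37.6 and 38.9 on day 1, and its small spread gave a log2 fold change of 1.87 (SE 0.08, adjusted p = 1.41e-08).

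A promoter is shown here because Sgk1 was the member of this list whose promoter window held the searched receptor motif. The glucocorticoid receptor binds as a dimer to an inverted repeat, searched as the arm GNACA, 3 bases of any kind and the reverse complement of that arm. Since this motif reads the same on both strands, each match counts for both. A match was present in the windows of 145 of 27025 genes (0.537%), in 31 of 8733 tested genes with a window (0.355%) and in 1 of the 18 listed genes, all of which had a window of 250 bases before and 50 after the start site. The window of Sgk1 (RefSeq, GRCm38.p6, chr10:21993640-21993939, plus strand) has the match, in capitals, from position -188 relative to the start site.
Sgk1 promoter: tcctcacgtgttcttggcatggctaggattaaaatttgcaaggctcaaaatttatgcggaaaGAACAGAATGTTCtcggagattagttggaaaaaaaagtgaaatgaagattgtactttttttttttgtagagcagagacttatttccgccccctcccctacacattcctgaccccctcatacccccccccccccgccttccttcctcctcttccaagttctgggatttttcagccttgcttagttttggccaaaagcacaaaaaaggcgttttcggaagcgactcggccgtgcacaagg

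**Figure D3:**
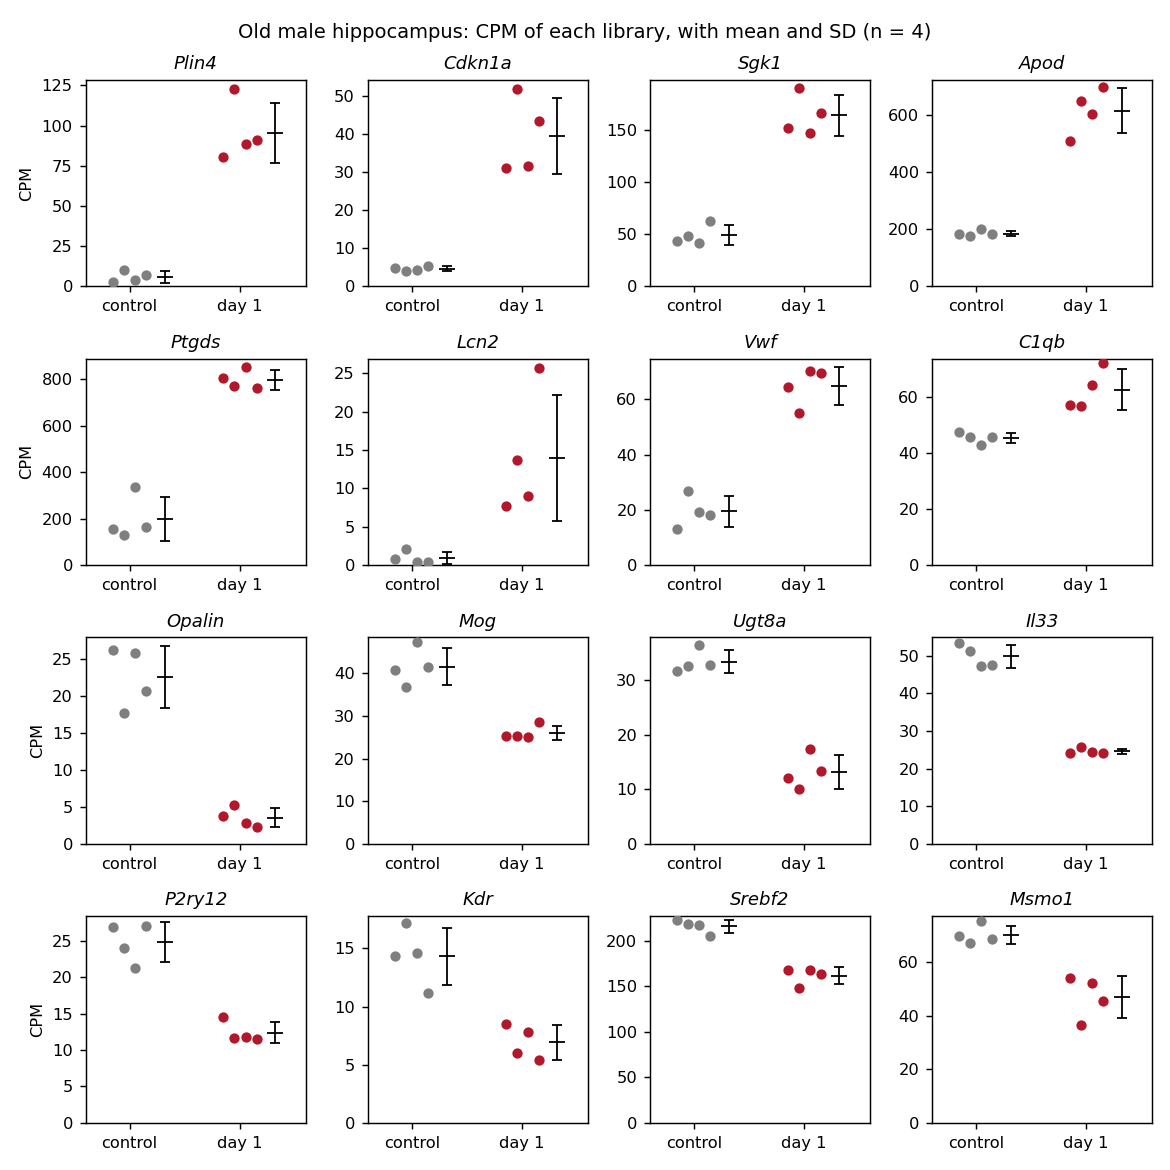
Level in CPM, on axes that start at 0, of 16 genes in each of the 4 control (grey) and 4 day 1 (red) libraries of old males. Black bars give the mean and SD of each group. The genes were picked from those named in the text, some of them by a rule that required no overlap. In all 16 the groups did not overlap, which held for 1312 of all 11687 genes (11.2%).

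Genes of lipid storage and fuel switching rose as well. Of the 23 tested genes of insulin signalling, FoxO targets and fuel choice, 13 were called higher and 1 lower, with a median of 0.28 against -0.01 over all genes. Klf15, Pdk4, Ddit4 and Sesn1 of this list are also on the glucocorticoid list. Plin4, a coat protein of lipid droplets (chromosome 17, 56100591 to 56109803 in GRCm38), had the largest log2 fold change of all genes. It was at 2.42, 10.2, 3.69 and 7.10 CPM in controls and 80.5, 122, 88.2 and 90.7 on day 1. Every day 1 library was several times above the highest control, the ratio of means was 16.3, and the log2 fold change was 3.95 (SE 0.27, adjusted p = 5.09e-07). Pnpla2, the lipase that starts the breakdown of stored triglyceride, was at 10.5, 12.1, 12.5 and 11.4 CPM in controls and 25.4, 38.03, 25.4 and 32.7 on day 1. Its rise to 2.61 times the control mean was carried by all 4 libraries, most of all by replicates 2 and 4 (log2 fold change 1.30, SE 0.12, adjusted p = 6.95e-06).

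Pdk4, which shuts pyruvate out of the citric acid cycle, went from 6.88 ± 0.579 to 14.97 ± 0.803 CPM (1.02, adjusted p = 6.92e-06). Ucp2, a mitochondrial carrier (1.52), Ddit4, an inhibitor of mTORC1 (1.02), and Txnip, which limits glucose uptake and binds thioredoxin (0.92), rose too. The only member called lower was Fbxo32, a ubiquitin ligase of muscle wasting, at -0.48 (adjusted p = 0.0188), and this call was lost in the unmoderated F test. Etnppl, an astrocyte enzyme that degrades phosphoethanolamine, rose from 19.7 ± 6.77 to 53.3 ± 7.07 CPM (1.44, adjusted p = 7.32e-05). Txnip overlaps the gene Gm15441, with which it shares 15.7% of the 50-base stretches of its transcripts, so its value is uncertain.

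Apod and Ptgds, secreted proteins that carry lipids and other small molecules, had the largest rises in CPM among called genes. Apod, a lipoprotein of glia and vessel walls that binds lipids, was at 182, 176, 200.3 and 183 CPM in controls and 511, 649.8, 605 and 699 on day 1. The controls were tight and the day 1 libraries all lay above 500 CPM, with a log2 fold change of 1.72 (SE 0.08, adjusted p = 1.91e-08). Ptgds, the prostaglandin D synthase of meninges, choroid plexus and oligodendrocytes, was at 158, 129.5, 337 and 165 CPM in controls and 806, 770.0, 852 and 761 on day 1. Control replicate 3 stood above the other controls but below every day 1 library (log2 fold change 2.11, SE 0.20, adjusted p = 1.12e-05; 2.08 without day 1 replicate 3). Of the other meningeal and fibroblast markers, Fmod, a matrix proteoglycan, was called higher (0.89) and Dcn was not (-0.18). The call of Fmod was lost in the unmoderated F test and in a fit of all groups. The 10 markers summed to 201 to 423 CPM in controls and to 833 to 1020 on day 1, most of it Ptgds. The part of meningeal tissue in the rise of Ptgds was not tested. Hif3a, a hypoxia-inducible factor that lacks the strong activation domain of its relatives, rose from 3.41 ± 1.12 to 17.6 ± 1.997 CPM (2.11, adjusted p = 1.07e-06). It was 1 of 9 tested genes of hypoxia and angiogenesis, of which Apln, a vessel growth peptide, was called lower (-0.54) and Vegfa was not called (-0.09). The call of Apln was lost in the F test.

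On the list of STAT3 signalling and the acute phase, 9 of 14 tested genes were called higher, with a median of 0.41. This is 64.3% of the list, against 8.50% of all genes. Of 11 tested genes of cytokine and NF-kB signalling, 2 were called higher (18.2%). The 19 others of that list of 30, most of the cytokines and chemokines among them, lay below 5 CPM. Lcn2, an acute phase protein that binds bacterial iron carriers and marks reactive astrocytes and endothelium, was at 0.752, 2.07, 0.392 and 0.441 CPM in controls and 7.67, 13.7, 9.01 and 25.6 on day 1. It was nearly absent from controls, and replicate 4 held the highest value (log2 fold change 2.90, SE 0.31, adjusted p = 3.19e-05). The receptor subunits Il4ra (0.998), Il6ra (0.88) and Osmr (0.83) rose, while Il6st, the shared subunit gp130, was at 71.5 ± 4.47 CPM in controls and 66.6 ± 3.72 on day 1 and was not called. The kinase Jak3 (0.64) and Stat3 itself rose, the latter from 46.2, 47.5, 46.1 and 46.3 CPM in controls to 49.5, 58.1, 55.6 and 56.5 on day 1 (log2 fold change 0.23, adjusted p = 0.0489). Serpina3n, a protease inhibitor of reactive astrocytes, went from 50.3 ± 9.08 to 86.1 ± 15.96 CPM (0.76, adjusted p = 0.00268).

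Among cytokine and NF-kB genes, Il1r1, the interleukin 1 receptor, was called higher beside Nfkbia (0.57, adjusted p = 0.0229), and Nfkb1 was at 15.4 ± 0.929 and 15.2 ± 1.20 CPM without a call. Of 12 tested interferon-stimulated genes, 0 were called higher in limma's test and in the unmoderated F test, and 1 was higher at an unadjusted p below 0.05. The median was -0.04, and Ifit3, an antiviral protein, was the single gene called lower. This is 8.33% of the list, against 8.50% of all genes. Without day 1 replicate 3 the median was -0.12 and 2 genes were called lower, while without control replicate 4 or day 1 replicate 1 it was 0.02. The 29 listed genes summed to 262 to 276 CPM in controls, 223 to 258 in the other 3 day 1 libraries and 331 in that one, and the part of the choroid plexus RNA in this was not tested. B2m and H2-K1, the chains of class I antigen presentation, were at -0.03 (adjusted p = 0.914) and 0.05 (adjusted p = 0.851), with H2-D1 at -0.08 (adjusted p = 0.756). Ifit3 was at 6.13, 11.6, 8.64 and 10.3 CPM in controls and 4.73, 5.79, 7.55 and 4.37 on day 1, groups that overlap. Its call (-0.61, adjusted p = 0.0599) was lost when any of 4 libraries was left out, and it shares 51.2% of its transcript stretches with its near copy Ifit3b.

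The genes of complement C1q rose. Of 7 tested complement genes, 4 were called higher, with a median of 0.41. The 3 chains of C1q, which starts the classical pathway and tags synapses, gave C1qa at 0.48 (adjusted p = 0.00732), C1qb at 0.45 (0.00236) and C1qc at 0.41 (0.0142). C1qb was at 47.4, 45.7, 42.96 and 45.7 CPM in controls and 57.2, 56.7, 64.5 and 72.3 on day 1, so the groups did not overlap. C3 and C4b, which carry the cascade onward, were not called. C3 was at 7.82, 5.58, 6.43 and 7.70 CPM in controls and 3.58, 7.39, 10.7 and 13.4 on day 1, and C4b at 179.9, 168, 161 and 167 and 133, 202, 165 and 199.

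Genes of surveying microglia fell. Of 14 tested genes of homeostatic microglia, 6 were called lower, with a median of -0.29 (-0.18 without day 1 replicate 2), and all 14 had a negative log2 fold change. P2ry12, the ADP receptor by which resting microglia sense injury, was at 26.9, 24.03, 21.3 and 26.96 CPM in controls and 14.5, 11.7, 11.7 and 11.5 on day 1. All day 1 libraries lay below all controls, the control mean was 2.01 times the day 1 mean, and the log2 fold change was -0.95 (SE 0.10, adjusted p = 2.45e-05). Its neighbour P2ry13 fell too (-0.67, adjusted p = 0.000981), as did the fractalkine receptor Cx3cr1 (-0.34, adjusted p = 0.0147) and the lectin Siglech (-0.53, adjusted p = 0.0596), whose groups overlap. Fcrls, an Fc receptor-like protein (-0.35, adjusted p = 0.0642), and Sall1, the transcription factor of microglial identity (-0.28, adjusted p = 0.0469), were the other 2 called members. The identity markers Tmem119 (19.5 ± 1.63 CPM in controls and 18.1 ± 1.64 on day 1) and Csf1r (75.2 ± 4.81 and 69.4 ± 3.86) were not called. Of 8 tested genes of activated microglia, 2 were called higher and 1 lower. Fcgr3, an activating Fc receptor, rose from 10.9 ± 1.76 to 24.5 ± 4.31 CPM (1.10, adjusted p = 4.51e-05), Spp1, osteopontin, rose (0.97), and Lpl, lipoprotein lipase, fell (-0.43). Neutrophil markers were near 0: S100a8 was at 0 to 0.496 CPM in controls and 0.0387 to 0.589 on day 1, S100a9 at 0.0401 to 0.827 and 0.542 to 1.45, and Ngp at 0 to 0.0414 and 0.0723 to 0.432.

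The vessels changed in both directions. Of 22 tested endothelial genes, 6 were called higher and 4 lower, with a median of 0.05. Vwf, the adhesion protein that endothelium releases on activation, was at 13.2, 26.9, 19.4 and 18.2 CPM in controls and 64.5, 55.1, 70.2 and 69.6 on day 1. The lowest day 1 library was above the highest control by a factor of more than 2, and the log2 fold change was 1.72 (SE 0.15, adjusted p = 4.97e-06). Ly6a and Ly6c1, surface proteins of brain endothelium, rose by 1.37 (adjusted p = 5.09e-07) and 1.03 (adjusted p = 1.56e-05) on the log2 scale. They are near copies within a gene family, and 19% and 32.8% of their transcript stretches occur in other genes, so reads could be split among them. Mfsd2a, the transporter of docosahexaenoic acid at the blood-brain barrier, rose from 10.1 ± 2.97 to 25.4 ± 3.30 CPM (1.28, adjusted p = 7.82e-05).

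In the other direction, Kdr, the main receptor for VEGF, was at 14.3, 17.2, 14.6 and 11.2 CPM in controls and 8.48, 5.97, 7.81 and 5.38 on day 1, without overlap (log2 fold change -0.96, SE 0.14, adjusted p = 0.000686). Itm2a, a membrane protein of brain endothelium, fell from 16.6 ± 3.71 to 7.91 ± 2.32 CPM (-0.99, adjusted p = 0.00385). The markers that define endothelium were not called: Cldn5 was at 40.3 ± 5.95 CPM in controls and 33.04 ± 3.66 on day 1, Pecam1 at 17.6 ± 0.346 and 21.4 ± 3.26, and Cdh5 at 9.60 ± 0.912 and 11.1 ± 1.84. Of 6 tested genes of pericytes and smooth muscle, 4 were called lower: the light chain Myl9 (-0.55), the actin Acta2 (-0.44), Vtn (-0.38) and Rgs5 (-0.28). The receptor Pdgfrb was not called (-0.20). The chemokine Cxcl12, made by vessels and neurons, fell from 50.2 ± 5.26 to 26.9 ± 7.85 CPM (-0.91, adjusted p = 0.00116). Unc5b, a netrin receptor of vessels and neurons, fell from 35.8 ± 3.08 to 17.9 ± 3.51 CPM (-0.97, adjusted p = 5.76e-05).

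Of 27 tested genes of the extracellular matrix, 11 were called higher and 2 lower, with a median of 0.20, or -0.01 over the members of at least 50 CPM. Fbln5, an organizer of elastic fibres, was at 3.14, 4.30, 4.94 and 4.33 CPM in controls and 15.7, 11.6, 14.97 and 11.7 on day 1, a rise without overlap (1.49, SE 0.13, adjusted p = 6.95e-06). The proteases Adamts9 (1.11, adjusted p = 5.76e-05) and Adamts1 (0.76, adjusted p = 0.00100) and the protease inhibitor Timp4 (0.74, adjusted p = 6.59e-05) rose. Adamts4, a protease that cuts the proteoglycans around neurons and is made by oligodendrocytes, fell from 22.6 ± 2.66 to 14.2 ± 1.96 CPM (-0.64, adjusted p = 0.00137). Ncan, a proteoglycan of the nets around neurons and named after its values were seen, was the other gene called lower, from 160.3 ± 11.4 to 119 ± 2.67 CPM (-0.43, adjusted p = 0.000426).

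**Figure D4:**
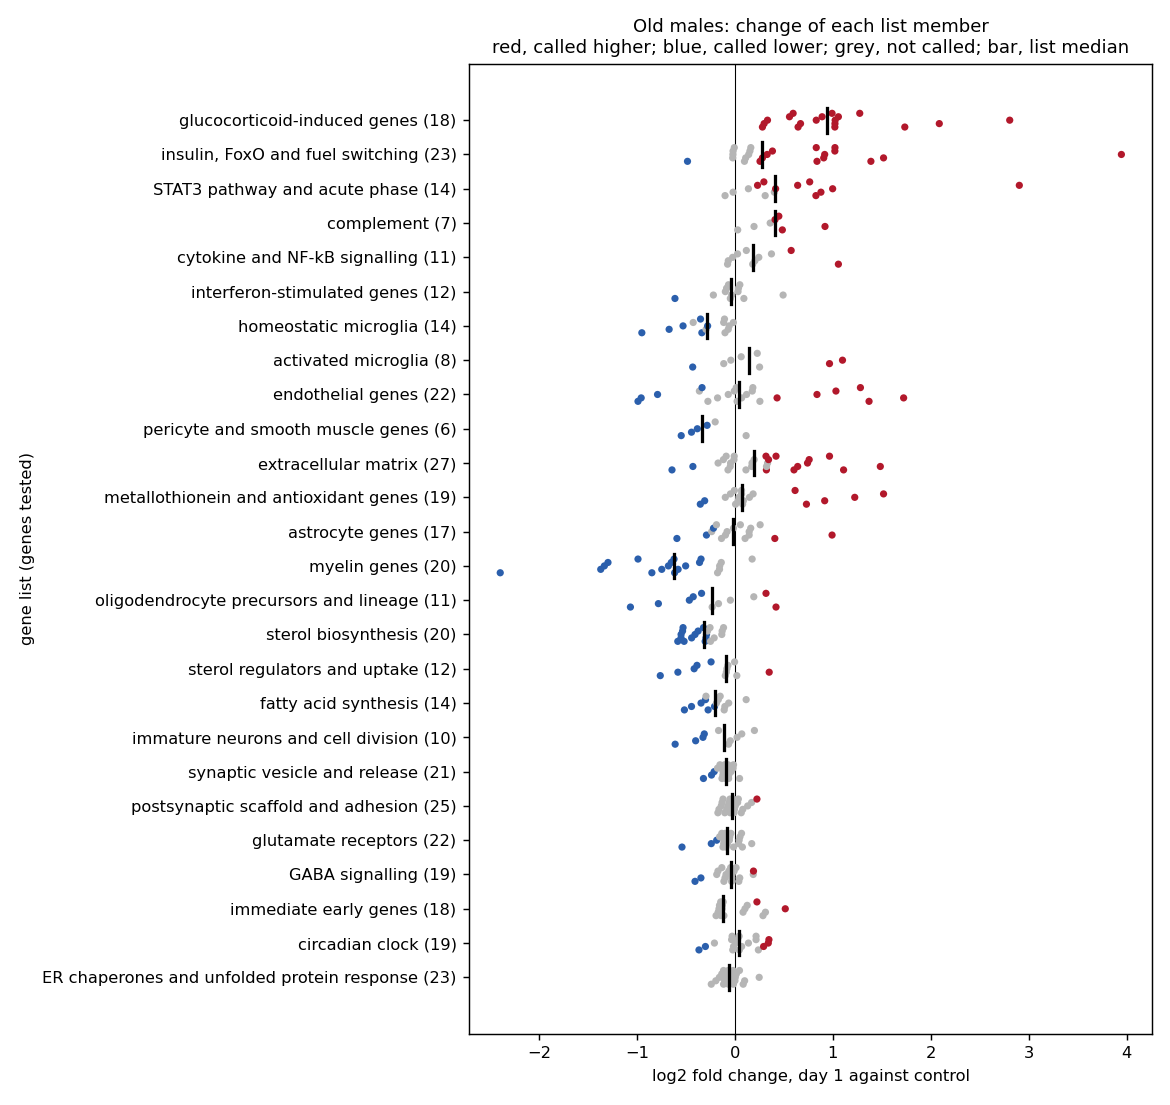
Log2 fold change of day 1 against control for every tested member of 26 gene lists, with the number of genes tested in parentheses. Red points were called higher, blue points called lower and grey points not called, and the black bar is the median of the list, from 0.94 for glucocorticoid-induced genes to -0.62 for myelin genes.

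Myelin genes were downregulated. Of 20 tested, 15 were called lower, and the median log2 fold change was -0.62. Opalin, a transmembrane protein found on the myelin sheath (chromosome 19, 41061710 to 41077113 in GRCm38), was at 26.1, 17.6, 25.7 and 20.6 CPM in controls and 3.74, 5.26, 2.82 and 2.36 on day 1. The control mean was 6.35 times the day 1 mean, and this was the largest fall of all 11687 genes (log2 fold change -2.40, SE 0.17, adjusted p = 7.23e-07). Ugt8a, the enzyme that makes galactosylceramide, the chief glycolipid of myelin, was at 31.6, 32.6, 36.5 and 32.8 CPM in controls and 12.1, 10.1, 17.5 and 13.3 on day 1. Every day 1 library was below 20 CPM and every control above 30 (log2 fold change -1.29, SE 0.12, adjusted p = 1.05e-05).

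The surface proteins Mog and Mag also fell. Mog was at 40.8, 36.8, 47.2 and 41.4 CPM in controls and 25.2, 25.4, 25.1 and 28.6 on day 1, and Mag at 151, 135, 155 and 139.7 and 81.3, 94.9, 98.9 and 103, without overlap, with log2 fold changes of -0.65 (adjusted p = 0.000118) and -0.62 (adjusted p = 9.50e-05). The structural genes Mbp, Mobp and Mal were not called. Mbp was at 2321, 1906, 2166 and 1951 CPM in controls and 1519, 2077, 1776 and 2170.3 on day 1, Mobp at 826, 820.1, 771 and 766 and 805, 881, 929 and 992, and Mal at 161, 150.2, 149.6 and 153 and 132, 143, 135 and 147. The day 1 values of Mbp and Mobp overlapped those of controls, while those of Mal were all lower (adjusted p = 0.494, adjusted p = 0.192 and adjusted p = 0.214). Pllp, another membrane protein of myelin, fell by 1.33 on the log2 scale and the small heat shock protein Cryab fell by 0.85, but Pllp shares 43.6% and Cryab 13.3% of its transcript stretches with an overlapping gene. Car2, the carbonic anhydrase of oligodendrocytes, was not on the list and fell from 149 ± 16.2 to 74.7 ± 10.96 CPM (-0.99, adjusted p = 1.56e-05).

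The lineage genes of oligodendrocytes were split. Of 11 tested, 5 were called lower and 2 higher. Lpar1, a lysophosphatidic acid receptor of maturing cells (-1.07, adjusted p = 1.15e-05), Enpp6, a marker of newly formed cells (-0.78, adjusted p = 0.0204), and the transcription factors Sox10 (-0.46, adjusted p = 0.0181), Olig1 (-0.42, adjusted p = 0.00736) and Olig2 (-0.34, adjusted p = 0.0309) fell. The sialidase Neu4 (0.42, adjusted p = 0.0574) and the proteoglycan Vcan (0.32, adjusted p = 0.0886), which was named after its values were seen, were called higher. Both calls were lost when single libraries were left out. The defining genes of precursors were not called: Pdgfra was at 38.6 ± 3.27 CPM in controls and 44.2 ± 1.71 on day 1, and Cspg4 at 25.7 ± 3.34 and 22.7 ± 2.43. Il33, an alarmin that adult oligodendrocytes and astrocytes hold in the nucleus, was at 53.3, 51.2, 47.1 and 47.6 CPM in controls and 24.04, 25.7, 24.5 and 24.1 on day 1. The day 1 libraries differed hardly at all and lay far below the controls (-0.99, SE 0.07, adjusted p = 4.76e-07). Sox2ot, a long noncoding RNA around Sox2, fell from 28.9 ± 2.26 to 14.7 ± 2.34 CPM (-0.94, adjusted p = 4.23e-05), and Tst, a mitochondrial sulfurtransferase, from 28.1 ± 5.89 to 15.01 ± 2.54 CPM (-0.85, adjusted p = 0.00115).

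The enzymes of cholesterol synthesis fell. Of 20 tested genes of sterol biosynthesis, 13 were called lower, all 20 had a negative log2 fold change and the median was -0.31. The values of the list ranged from -0.58 to -0.12, against -2.40 to 0.18 for the myelin genes. Msmo1, a sterol demethylase, was at 69.6, 67.2, 75.2 and 68.5 CPM in controls and 54.1, 36.4, 52.2 and 45.4 on day 1 (-0.58, SE 0.10, adjusted p = 0.00225). Hmgcs1, an early enzyme of the pathway, was at 123, 116, 129 and 125 CPM in controls and 93.2, 81.01, 90.02 and 76.7 on day 1, without overlap (-0.53, SE 0.07, adjusted p = 0.000163). The isomerase Idi1 (-0.55), the squalene epoxidase Sqle (-0.53, adjusted p = 0.00102) and the farnesyl diphosphate synthase Fdps (-0.52) fell by nearly the same amount. Replicates 2 and 4 of day 1 held the lowest values of Msmo1 and Sqle. Of the named enzymes, Idi1, Hmgcs1 and Fdps share between 11.6% and 26.2% of their transcript stretches with other genes.

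Among the regulators of sterol metabolism the falls outnumbered the rises, with 5 of 12 tested called lower and 1 higher. Srebf2, the transcription factor, was at 223, 219, 217 and 206 CPM in controls and 168, 149, 168 and 163 on day 1 (-0.42, SE 0.06, adjusted p = 0.000410). The sterol transfer protein Stard4 (-0.58, adjusted p = 0.0148), the feedback protein Insig1 (-0.39, adjusted p = 0.0156) and the receptor Nr1h2 (-0.24, adjusted p = 0.0748) also fell. The exporter Abca1 was called higher (0.35, adjusted p = 0.0792), but not when day 1 replicate 3 was left out (0.30, adjusted p = 0.190), nor was Nr1h2 called lower then (adjusted p = 0.195). Of 14 tested genes of fatty acid synthesis, 6 were called lower. They were Fasn, the synthase (-0.27, adjusted p = 0.00753), the desaturases Fads2 (-0.44, adjusted p = 0.00144), Scd2 (-0.35, adjusted p = 0.00315) and Scd1 (-0.30, adjusted p = 0.0132), the citrate lyase Acly (-0.21, adjusted p = 0.0280), and Mid1ip1, an activator of acetyl-CoA carboxylase (-0.51, adjusted p = 0.000455). Scd2 fell from 1100.0 ± 53.8 to 866 ± 34.7 CPM.

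The sequence shown next is the window, of the listed enzymes, that held a sterol regulatory element, the site bound by SREBF2. The element was searched as TCACNCCAC on either strand. Windows of 388 of 27025 genes held it (1.44%), as did 125 of 8733 tested genes with a window (1.43%) and 1 of the 15 listed enzymes with a window. In Hmgcs1 (RefSeq, GRCm38.p6, chr13:119690101-119690400, plus strand) the match, in capitals, starts at position -137.
Hmgcs1 promoter: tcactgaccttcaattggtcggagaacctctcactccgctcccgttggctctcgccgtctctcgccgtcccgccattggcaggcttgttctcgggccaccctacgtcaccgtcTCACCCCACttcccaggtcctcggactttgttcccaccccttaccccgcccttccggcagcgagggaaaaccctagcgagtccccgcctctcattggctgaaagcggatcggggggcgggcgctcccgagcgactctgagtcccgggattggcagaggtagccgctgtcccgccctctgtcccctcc

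Astrocytes showed no common direction. Of 17 tested genes, 2 were called higher and 3 lower, with a median of -0.01. Gjb6, connexin 30, which is also on the glucocorticoid list, was at 29.5, 34.2, 27.5 and 30.2 CPM in controls and 62.8, 61.6, 58.5 and 61.7 on day 1, a rise without overlap (0.99, adjusted p = 6.89e-07). Aqp4, the water channel of the astrocyte endfeet around vessels, was at 85.9, 70.3, 82.8 and 76.8 CPM in controls and 52.5, 54.2, 49.9 and 51.1 on day 1, a fall without overlap (-0.59, SE 0.07, adjusted p = 6.68e-05). The bicarbonate transporter Slc4a4 (-0.29, adjusted p = 0.0278) and Gja1, connexin 43 (-0.22, adjusted p = 0.102), were called lower, and the growth factor receptor Fgfr3 higher (0.41, adjusted p = 0.00368). Gfap, the filament that marks reactive astrocytes, was at 428, 396, 403 and 429 CPM in controls and 339, 507, 325 and 421 on day 1. Its groups overlap and it was not called, nor were Aldh1l1 (0.15) and the glutamate transporter Slc1a2 (0.06). On a separate list of reactive astrocytes, 4 of 7 tested genes were called higher: Lcn2, Osmr, Serpina3n and the copper carrier ceruloplasmin, Cp (0.80, adjusted p = 0.000753).

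Among metallothioneins and antioxidant genes, 5 of 19 tested were called higher and 2 lower. Ucp2 and Txnip are on this list too. Mt1, a metal-binding protein of astrocytes and vessels, was at 122, 138, 103 and 136 CPM in controls and 202, 229, 178 and 219.9 on day 1 (0.73, SE 0.09, adjusted p = 0.000163). Mt2 rose as well (0.61, adjusted p = 0.0438), although 45.8% of its transcript stretches belong to an overlapping gene too. Gpx3, a secreted glutathione peroxidase, was at 3.01, 3.85, 3.77 and 2.93 CPM in controls and 6.94, 5.70, 21.6 and 8.02 on day 1, where the library with choroid plexus RNA held the highest value, and without it the log2 fold change was 0.84 in place of 1.22 (adjusted p = 0.00215 and 0.0156). The cystine carrier Slc7a11 (-0.35) and catalase, Cat (-0.31), were called lower. Of 23 tested chaperones of the endoplasmic reticulum and genes of the unfolded protein response, 0 were called in limma's test and in the F test, 1 was higher at an unadjusted p below 0.05 and the median was -0.06. The 24 listed genes summed to 1804 to 2025 CPM in controls, 2181 in day 1 replicate 3 and 1501 to 1840 in the other day 1 libraries. Without day 1 replicate 2 the median was 0.06. Without replicate 3 it was -0.11, and Calr, the chaperone calreticulin, which was named after its values were seen, was called lower. Of 17 cytosolic heat shock genes, Cryab and Hspa8 (-0.26, adjusted p = 0.0886) were called lower, 11.8% of the list against 8.50% of all genes. Growth arrest and DNA damage genes gave 4 calls among 15 tested, all higher: Cdkn1a, Sesn1, the kinase Plk2 (0.23, adjusted p = 0.0970) and the cyclin-dependent kinase inhibitor Cdkn1b (0.22, adjusted p = 0.0794). This is 26.7% of the list, against 8.50% of all genes, with a median of 0.13. Cdkn1a and Sesn1 are also on the glucocorticoid list, and the calls of Plk2 and Cdkn1b were lost when single libraries were left out. Without day 1 replicate 3, 3 genes of the list were called higher and 1 lower.

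Neuronal genes changed by small amounts. Of 22 glutamate receptor genes 3 were called lower, of 21 genes of synaptic vesicles and release 3 lower, of 25 genes of postsynaptic scaffolds and adhesion 1 higher, and of 19 genes of GABA signalling 2 lower and 1 higher. The shares called were 13.6%, 14.3%, 4.00% and 15.8%, against 8.50% of all genes, and the medians of these lists were -0.08, -0.09, -0.02 and -0.04. Camk2a, the kinase of excitatory synapses, was at 3195, 3325, 2817 and 3290.4 CPM in controls and 3067, 3076, 3159 and 3265 on day 1. Snap25, part of the release machinery, was at 1095, 1135, 1269 and 1370.0 and 1250.4, 1104, 1072 and 1046, and Gad1, which makes GABA, at 254, 239, 251 and 268 and 251, 246, 248 and 262. In these 3 genes the groups overlap. Called members included the release proteins Syn2 (-0.24, adjusted p = 0.0485) and Unc13a (-0.21, adjusted p = 0.0741), the receptor subunits Grin3a (-0.24, adjusted p = 0.0627) and Grik3 (-0.19, adjusted p = 0.112), Stx1a, a syntaxin of the release machinery (-0.32, adjusted p = 0.0153), and the extrasynaptic GABA receptor subunit Gabrd (-0.35, adjusted p = 0.0579). The receptor Grm3 (-0.54, adjusted p = 0.0573) and the GABA transporter Slc6a11 (-0.41, adjusted p = 0.00324), which fell more, are known mainly from astrocytes.

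Some genes of immature neurons and cell division fell. Of 10 tested genes on this list, 4 were called lower (40.0%, against 8.50% of all genes). The median was -0.12, or -0.08 without day 1 replicate 3. They were the tubulins Tubb2b (-0.61, adjusted p = 0.00210) and Tubb3 (-0.40, adjusted p = 0.00263), the tubulin-binding protein Stmn1 (-0.33, adjusted p = 0.0421) and the cyclin Ccnd1 (-0.31, adjusted p = 0.0939). Dcx, the usual marker of new neurons, was at 10.7, 10.4, 13.3 and 10.5 CPM in controls and 10.5, 12.2, 9.19 and 10.8 on day 1 and was not called. Other tubulins were among the called genes with the largest fall in CPM. Tuba1a went from 767 ± 74.7 to 585 ± 32.6 CPM (-0.39, adjusted p = 0.00512) and Tubb4a, the tubulin of oligodendrocytes and mature neurons, from 661 ± 34.2 to 481 ± 49.05 (-0.46, adjusted p = 0.00115). Tubulin genes are near copies, and 75.5% of the stretches of Tuba1a and 36.9% of those of Tubb2b occur in other genes. By the same measure of CPM, the secreted protein Olfm1 fell from 902 ± 52.4 to 755 ± 60.1 CPM (adjusted p = 0.0475).

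Of 14 tested neuropeptide and interneuron genes, 2 were called higher and 3 lower. The peptide Vip was at 10.9, 7.69, 12.8 and 10.1 CPM in controls and 14.9, 16.1, 16.2 and 15.3 on day 1, a rise without overlap (0.57, adjusted p = 0.00944), and the calcium buffer Calb1 rose (0.41, adjusted p = 0.0111). The nitric oxide synthase Nos1 fell from 129 ± 13.5 to 94.6 ± 6.79 CPM (-0.44, adjusted p = 0.00263), and Npy (-0.31, adjusted p = 0.0731) and Cck (-0.28, adjusted p = 0.0252) were called lower. Of 14 tested markers of hippocampal subfields, 2 were called, both lower and both of the dentate gyrus: Plk5 (-0.73, adjusted p = 0.000392) and C1ql2 (-0.36, adjusted p = 0.0345). This is 14.3% of the list, against 8.50% of all genes, and the median of the list was -0.06. The values of the granule cell gene Prox1 overlapped between the groups.

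Clock genes were split and most activity genes were not called. Of 18 tested immediate early genes, 2 were called higher, Fosb (0.51, adjusted p = 0.0817) and Homer1 (0.23, adjusted p = 0.0804), and the median was -0.12. This is 11.1% of the list, against 8.50% of all genes. Fos was at 11.3, 8.15, 8.44 and 10.8 CPM in controls and 8.13, 8.37, 8.97 and 9.84 on day 1, Arc at 96.1, 78.9, 61.1 and 90.7 and 72.1, 58.3, 86.7 and 76.9, and Egr1 at 76.1, 63.2, 56.8 and 69.8 and 70.7, 77.4, 73.3 and 63.6, with overlapping groups. Of 19 tested clock genes, Per2 (0.35, adjusted p = 0.0181), Cry1 (0.34, adjusted p = 0.0413) and Bhlhe40 (0.29, adjusted p = 0.00754), which repress the clock's activators, were called higher, and Rorb (-0.37) and Dbp (-0.30) lower, 26.3% of the list. Without day 1 replicate 3 the latter 2 were not called (adjusted p = 0.141 for Rorb and adjusted p = 0.260 for Dbp).

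The values of other named genes are uncertain because their transcripts share stretches with an overlapping or similar gene: these are H2-D1, Csf1r, Spp1, Adamts9, Mid1ip1, Fgfr3, Aldh1l1, Stmn1, Ccnd1, Dbp, Hspa8 and Armcx5, with at most 39.4% shared.

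Hemoglobin transcripts, which red cells and their precursors carry into the tissue, were lower on day 1. All 4 tested genes were called lower. Hba-a1 was at 26.3, 35.4, 40.99 and 25.98 CPM in controls and 8.98, 14.4, 24 and 16.01 on day 1 (-1.03, SE 0.21, adjusted p = 0.00867), and Hba-a2 (-0.71), Hbb-bs (-0.75) and Hbb-bt (-0.81) moved with it. These genes are near copies, with between 53.2% and 89.3% of their stretches shared, so they count as close to 1 measurement for each chain. The 25 blood markers summed to 137 to 216 CPM in controls and to 61.5 to 106 on day 1, or 156 in replicate 3. The part of residual blood in the other changes was not tested.

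The same contrast in the other groups used other mice. On day 1 against their own controls, 3117 of the same genes were called in old females (26.7%), 947 in young males (8.10%) and 549 in young females (4.70%). Of the 993 calls of old males, 492 were called in the same direction in young males (49.5% of the calls of old males and 52.0% of those of young males). The same held for 330 calls with respect to young females (33.2% and 60.1%) and for 563 with respect to old females (56.7% and 18.1%). The opposite direction was called in 11 genes of old females and in no gene of young males or young females. A core of 212 genes, 114 higher and 98 lower, was shared by all 4 groups in direction, and 252 calls of old males, 110 higher and 142 lower, in no other group. Of these 252, 34 differed from old females or young males in a test of the interaction, and none from both, so they are not shown to be particular to old males.

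Whether the change differed between the sexes at old age was tested as an interaction over 16 libraries, the change in old males minus that in old females. Of the 11687 genes, 1924 passed an unadjusted p below 0.01 (16.5%), of which 972 were more positive and 952 more negative in old males, and 1711 had an adjusted p below 0.05. Most of these were genes that moved in old females: 1521 were called there and not in old males, 40 in old males and not in old females, and 162 in both, 11 of them in opposite directions. Among the 202 calls of old males with an interaction, the change was larger in old males in 52 and smaller in 150. The Spearman correlation of the interaction with the GC content of transcripts was -0.32 across 11585 genes, which are not independent and share these libraries. That of the change itself was -0.23 in old males and 0.21 in old females. With a correction for GC content 2204 genes passed the interaction test, of which 1622 had passed without it. The part of GC content in the difference was not tested.

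**Figure D5:**
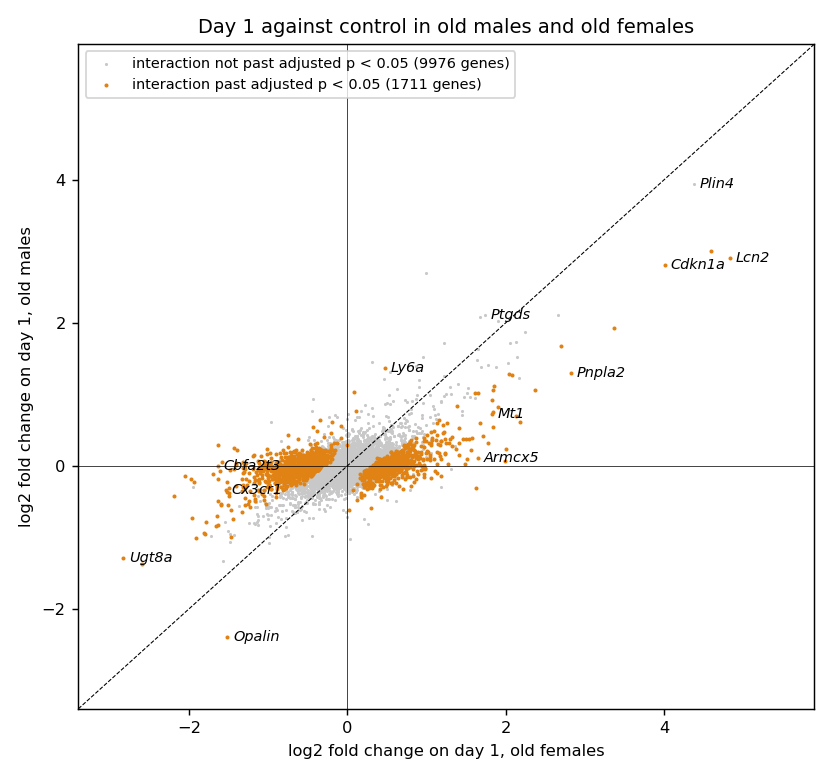
Log2 fold change of day 1 against control in old males, plotted against that in old females, for each of the 11687 genes. Orange points are the 1711 genes whose interaction had an adjusted p below 0.05, grey points all others, and the dashed line marks equal change. Cdkn1a, Lcn2, Pnpla2 and Mt1 lie below the line, with a larger rise in old females, and Ly6a lies above it.

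The glucocorticoid-induced genes rose less in old males than in old females. Of the 18, 11 had an interaction below an unadjusted p of 0.01, all 11 with the smaller rise in old males, and the medians were 0.94 and 1.28. Over all genes tested, the share with such an interaction was 16.5%. For Cdkn1a the log2 fold changes were 2.81 and 4.01 (difference -1.20, SE 0.27, adjusted p = 0.00608), for Fkbp5 1.02 and 1.61 (difference -0.59, adjusted p = 0.00342). Of the fuel switching genes 7 of 23 had an interaction, again all with the smaller value in old males. The smallest p among genes of at least 20 CPM whose change was more negative in old males was that of Pnpla2, whose level went from 13.2 ± 1.36 to 99.2 ± 6.93 CPM in old females and from 11.6 ± 0.897 to 30.4 ± 6.16 in old males (difference -1.52, SE 0.16, adjusted p = 4.46e-05). Next were Armcx5, which was not called in old males (0.11) and rose by 1.65 in old females (adjusted p = 9.46e-05), and Mt1, with changes of 0.73 and 1.83 (adjusted p = 0.000104). In the STAT3 list 4 of 14 had an interaction, not far above the 16.5% of all genes. All 4 had the smaller rise in old males, such as Stat3 (0.23 and 0.82, adjusted p = 0.00198) and Osmr (0.83 and 1.90, adjusted p = 0.00243).

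Homeostatic microglial genes fell less in old males. Of 14, 8 had an interaction, all with the smaller fall in old males, and the medians were -0.29 and -0.98. Cx3cr1 changed by -0.34 in old males against -1.54 in old females (difference 1.20, SE 0.17, adjusted p = 0.000241), and Tmem119, not called in old males (-0.11), was at -1.32 in old females (adjusted p = 0.0143). Of 20 myelin genes 5 had an interaction, not far above the 16.5% of all genes. Of these, 4 had the more positive change in old males and 1 the more negative, and the list medians were -0.62 and -0.90. Ugt8a (-1.29 and -2.83, adjusted p = 0.000104) fell less in old males, and Opalin fell more (-2.40 and -1.52, adjusted p = 0.0245). The endothelial surface genes Ly6a (1.37 and 0.47, adjusted p = 0.00485) and Ly6c1 (1.03 and 0.09, adjusted p = 0.00210) rose in old males and were not called in old females. Of the 22 glutamate receptor genes 10 had an interaction, 8 of them more positive in old males (medians -0.08 and -0.34). Of 23 genes of endoplasmic reticulum chaperones 5 had one, all more positive (-0.06 and -0.31), which is near the 16.5% of all genes. The smallest p with the more positive change in old males belonged to Cbfa2t3, a corepressor, Banp, a nuclear matrix protein, and Fn3k, a kinase that removes sugar from proteins. None of these was called in old males (0.00, 0.24 and -0.09), and all fell in old females (-1.63, -1.01 and -1.31, with adjusted p of the difference 8.09e-06, 4.46e-05 and 6.52e-05).

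Against young males the same kind of test found few genes. Of the 11687, 60 passed an unadjusted p below 0.01 (0.513%), 20 more positive and 40 more negative in old males, and 420 passed 0.05. Both counts are below what these thresholds give when no gene differs, so the 60 are not shown to differ with age. With another scaling of the libraries, by the median of ratios, the split was 34 and 35, and with a correction for GC content it was 18 and 49. The Spearman correlation of this interaction with GC content was 0.28 across 11585 genes, which are not independent. The part of GC content was not tested. In limma's test 0 genes had an adjusted p below 0.05, here and in every alternative fit. Without young male control replicate 3 the 60 became 153, and without replicate 1 of that group 101. The smallest p values of genes of at least 20 CPM were, with the more negative change in old males, those of C4b, the splicing factor Luc7l3 and Pdcd4, an inhibitor of translation, and, with the more positive change, Ahdc1, the ubiquitin ligase Rnf165 and the inositol phosphatase Inpp5j. C4b, complement component 4 (chromosome 17, 34728380 to 34743882 in GRCm38), was 169 ± 7.82 CPM in old male controls and 175 ± 32.5 on day 1, and 46.8 ± 6.13 and 91.4 ± 16.5 in young males. The log2 fold changes were 0.03 and 0.94, and the difference of -0.91 (SE 0.18, unadjusted p = 6.74e-05) had an adjusted p of 0.562. C4b shares 34.6% of its stretches with its near copy C4a. The differences of Pdcd4 (-0.42), Luc7l3 (-0.37), Ahdc1 (0.40), Rnf165 (0.32) and Inpp5j (0.31) were smaller, and the lowest of their adjusted p was that of Pdcd4 (0.951).

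Old males of day 4 are given beside these values, from 4 other mice that share their controls with the day 1 comparison. Plin4 was at 5.86 ± 3.51 CPM in controls, 95.5 ± 18.5 on day 1 and 46.9 ± 18.9 on day 4 (SD, n = 4). Cdkn1a was at 4.67 ± 0.553, 39.4 ± 10.03 and 15.3 ± 5.68, Ptgds at 197 ± 94.5, 797 ± 41.3 and 319 ± 109.9, and Vwf at 19.4 ± 5.66, 64.8 ± 6.97 and 74.6 ± 17.5. Day 4 minus day 1 was -1.09 on the log2 scale for Plin4 (adjusted p = 0.00250), -1.35 for Cdkn1a (0.000709), -1.38 for Ptgds (0.000111) and 0.18 for Vwf (0.315). C4b, which was not called on day 1, was at 313 ± 58.5 CPM on day 4 (day 4 minus day 1 0.84, adjusted p = 0.000535), and C1qb at 94.5 ± 5.02 after 62.7 ± 7.32 on day 1 (0.59, adjusted p = 0.000206). Among the genes that fell, Opalin was at 22.5 ± 4.12, 3.55 ± 1.28 and 11.3 ± 3.80 CPM, Mag at 146 ± 9.44, 94.5 ± 9.35 and 168 ± 15.3, and P2ry12 at 24.8 ± 2.72, 12.3 ± 1.45 and 12.7 ± 1.80. Day 4 minus day 1 was 1.43 for Opalin (adjusted p = 0.000278), 0.83 for Mag (5.06e-05) and 0.03 for P2ry12 (0.826).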

How the data were processed

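Hippocampal poly(A) RNA of each mouse was sequenced on the Ion Proton. Per the labels and the methods of the study, the authors aligned reads with STAR to mm10 in Partek Flow and deposited CPM values, that is, read counts scaled to library size after TMM normalization between libraries, in 1 column per library. Counting and strand are not given in the sources used here. Of values below 1000 reads, 82.1 to 82.8% were whole reads within 0.05, too few to recover counts, so no count model was used. Depth was estimated from those steps, and intervals cover the spread between mice.

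The 11687 genes that averaged 5 CPM or more in the 8 libraries were tested as log2(CPM + 1) with limma 3.58.1 (R 4.3.3), with moderated variances and a trend on mean level. Following the study, a call was an unadjusted p below 0.01, and Benjamini-Hochberg adjusted p are over all genes tested. A fold change on this scale understates that of low genes. Interactions with old females and young males were fitted over 16 libraries each. The fits were checked on simulated data. Named genes were the 10 higher and 10 lower with the largest change, and 6 and 6 with the largest difference in CPM, among genes with an adjusted p below 0.05, at least 20 CPM and no overlap; up to 6 called members of each gene list and its defining members; and 3 per direction of each interaction. Some genes that this rule names are not reported here. The members and lists were chosen with earlier results of these data known. Genes were matched by symbol to GENCODE for positions (GRCm38) and to RefSeq for promoters (GRCm38.p6). A gene is called uncertain where at least 10% of its exon bases or 50-base transcript stretches are shared with another gene. Alternatives covered pseudocounts, filters, scaling, GC content, the variance trend, the F test, the fit of all groups, the replicate block and each library left out.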

Additional observations from a re-analysis of the deposited data

Results flagged for a closer look

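In 23 of 376 sets of 4 libraries, 6.12% where chance gives about 1 in 20, the highest or the lowest library of a named gene lay farther from the others than expected of 4 values. Each number that follows is the gap to the nearest library as a share of the whole range of the 4. In day 1 replicate 3 this held for Etnppl (lowest, 0.990), Gpx3 (highest, 0.854), Ttr (highest, 0.998) and Kl (highest, 0.944). For day 1 replicate 1 the genes were P2ry12 (highest, 0.929) and Ncan (highest, 0.900). The genes of day 1 replicate 2 were Tsc22d3 (lowest, 0.945), Arrdc2 (highest, 0.845) and Jak3 (highest, 0.864). In day 1 replicate 4 this held for Mog (highest, 0.908). For control replicate 1 the genes were Fbxo32 (highest, 0.976) and Homer1 (highest, 0.844). The genes of control replicate 2 were Stat3 (highest, 0.832) and Cxcl12 (highest, 0.845). In control replicate 3 this held for Ucp2 (lowest, 0.864), Ptgds (highest, 0.830), Vtn (highest, 0.923), Ttr (highest, 0.880), Fn3k (highest, 0.899), Sall1 (lowest, 0.834) and Dcx (highest, 0.874). For control replicate 4 the genes were Arrdc2 (highest, 0.888) and Syn2 (highest, 0.895). Ttr, Kl and Gpx3 were high in day 1 replicate 3, the library in which the 13 choroid plexus markers summed to 3306 CPM, and the part of that tissue in the other values was not tested.

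The day 1 change differed between old males and old females at an adjusted p below 0.05 of limma's interaction term in 49 of 188 named genes, and in 1711 of all 11687 genes. Some named genes were chosen by this same interaction and many others by a large change in old males, so these shares cannot be compared. The differences are given on the log2 scale as old males minus old females. Among glucocorticoid-induced and growth arrest genes they were Cdkn1a -1.20, Arl4d -0.81, Nfkbia -0.78, Fkbp5 -0.59, Ddit4 -0.62, Sesn1 -0.45 and Cdkn1b 0.37. Among genes of fuel use and lipid metabolism they were Txnip -0.91, Pnpla2 -1.52 and Insig1 -0.56. Among acute phase and STAT3 genes they were Lcn2 -1.93, Osmr -1.07 and Stat3 -0.59. Among microglial genes they were P2ry12 0.85, Siglech 0.73, Cx3cr1 1.20, Tmem119 1.22, Fcrls 0.88 and Sall1 0.48. Among genes of vessels and matrix they were Ly6a 0.90, Ly6c1 0.94, Mfsd2a -0.76, Cdh5 -0.98, Adamts9 -0.75, Adamts1 -1.09 and Apln 0.96. Among genes of oligodendrocytes and myelin they were Car2 0.47, Sox2ot 0.87, Opalin -0.88, Ugt8a 1.54 and Mog 0.68. Among genes of astrocytes and metallothioneins they were Gja1 0.49, Gfap -0.56, Aldh1l1 -0.55, Mt1 -1.09 and Mt2 -1.57. Among genes of neurons, activity and the clock they were Npy -0.62, Homer1 0.87, Fos -1.08, Grm3 1.06, Grin3a 0.45, Cry1 -0.84, Dbp -0.52 and Ccnd1 1.19. The others were Cbfa2t3 1.64, Banp 1.25, Fn3k 1.22, Armcx5 -1.54 and Ctla2a -1.59. No named gene passed the same test against young males.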

How the results depend on the processing

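Under other settings the number of genes called in old males moved from 993 (442 higher, 551 lower, 618 at an adjusted p below 0.05) as follows. With only genes of at least 50 CPM, 3615 in number, it was 370 (136 higher, 234 lower, 252 adjusted), and the interactions with old females and young males, 1924 and 60 as reported, fell to 556 and 14. With no filter on low values 679 genes were called higher and the interaction with young males had 206 genes. A fit over all 12 groups gave 573 calls (256 higher, 317 lower, 302 adjusted) and 22 genes for that interaction, and the unmoderated F test gave 252 genes at an adjusted p below 0.05. Leaving out 1 library gave 736 to 960 calls, 323 to 498 higher, 413 to 537 lower and 380 to 584 adjusted. The interaction with old females then ranged from 1521 to 2191 genes and that with young males from 43 to 153, with 101 and 153 reached without control replicates 1 and 3 of the young males and the 380 without control replicate 1 of the old males. The labels give no link between mice of the same replicate number, and deviations of libraries with the same number correlated at -0.07, -0.07, 0.07 and -0.09, and with the replicate number as a block the counts were 872 (400 higher, 472 lower, 543 adjusted), 1742 and 57.

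Of 146 named genes called in old males, 95 kept their call in every alternative, 39 lost it in the F test and 41 in the fit of all groups, and none changed sign. Without a single library 29 lost it, with an unadjusted p of at most 0.0369: Ifit3, Siglech, Fcrls, Rgs5, Neu4, Vcan, Abca1, Nr1h2, Gja1, Ccnd1, Olfm1, Npy, Homer1, Fosb, Grm3, Grin3a, Grik3, Gabrd, Syn2, Unc13a, Rorb, Dbp, Mt2, Slc7a11, Hspa8, Hba-a2, Hbb-bs, Cdkn1b and Plk2. Day 1 replicate 2 was the library whose loss ended most of these calls (21) and day 1 replicate 3 ended the fewest (10). Each list median moved by less than the spread between libraries in all 288 fits without a library. The loss of 1 library of 4 can hardly move a median by that much, so this limit does not show that the medians are stable. Several moved by over 1.5 times. Without day 1 replicate 3 the median of choroid plexus markers went from 1.12 to 0.23, of cytokine and NF-kB genes from 0.18 to 0.10 (0.09 without control replicate 3) and of endoplasmic reticulum chaperones from -0.06 to -0.11. Homeostatic microglia went from -0.29 to -0.18 without day 1 replicate 2, oligodendrocyte lineage genes from -0.23 to -0.13 without control replicate 2, and immediate early genes from -0.12 to -0.07 without control replicate 1. Among lists with medians within 0.1 of 0, those of interferon-stimulated, astrocyte, endothelial, hypoxia, heat shock and endoplasmic reticulum genes and of markers of neighbouring regions changed sign without at least 1 library. Of the medians, 15 moved beyond that spread in other settings, all but 1 of them through a filter that changed the number of genes. For the remaining one, the glucocorticoid list with a pseudocount of 5 CPM (0.78), the larger pseudocount itself shrinks the change of low genes. The median of the matrix list turned to -0.01 with genes of at least 50 CPM.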

Other observations

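Of all 11687 genes, Ctla2a, an inhibitor of cysteine proteases and a gene chosen here after its values were seen, had the second largest log2 fold change after Plin4. It was at 1.44, 3.18, 1.37 and 2.29 CPM in controls and 25.3, 29.7, 15.6 and 23.4 on day 1, a log2 fold change of 3.001 (SE 0.20, adjusted p = 4.11e-07), and at 5.75 ± 1.66 on day 4. Its transcripts share 25.8% of their 50-base stretches with other genes, so these values are uncertain. Its day 1 change was 4.59 among old females, 2.17 among young females and 2.51 among young males.

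The C1q genes rose in old males at day 1 while C4b did not pass the test, and the control level of C4b was 169 ± 7.82 CPM in old males against 46.8 ± 6.13 in young males. The level of C4b in young males on day 1, 91.4 ± 16.5 CPM, was thus below that of untreated old males. This difference in control levels was not tested.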
